A study of Mus musculus with 10 samples.

Results

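Transcripts of 9 genes that carry sterols into, through and out of the enterocyte, or make and break cholesterol esters, were described in the mouse jejunum: Npc1l1, Abcg5, Abcg8, Abca1, Soat1, Soat2, Nceh1, Npc1 and Npc2. They were chosen by name, and 7 of the 9 were measured among 22180 genes. The platform annotation used here pairs no probe set with Soat1 or Soat2, and both are not analysed here. All mice were females of 10 to 12 weeks whose Pcyt1a alleles were floxed (Pcyt1aLoxP/LoxP). Pcyt1a encodes a regulatory enzyme of phosphatidylcholine synthesis. The 5 knockout arrays came from mice that also carried VilCreERT2, a Cre recombinase that tamoxifen activates and that the villin promoter expresses in the intestinal epithelium. The 5 control arrays came from mice without Cre, so activity of Cre itself and loss of Pcyt1a cannot be told apart. Both groups received tamoxifen for 5 days and high-fat food for 3 days, were fasted overnight and ate the same food again for 2 hours. A piece of 3 cm from the middle of the small intestine was then taken whole, so the RNA also comes from cells in which villin is silent, and fewer cells of a type and less RNA per cell cannot be told apart. The labels do not say outright that each array is a separate animal, so the error behind each p-value is the spread of the samples, part of which may be technical.

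Enterocytes take up cholesterol from the lumen through NPC1L1 in the brush border, and ABCG5 and ABCG8 together pump sterols back. What stays is esterified by the SOAT enzymes and packed into chylomicrons, or leaves across the basolateral membrane through ABCA1 to form high-density lipoprotein. Cholesterol that reaches lysosomes is handed from NPC2 to NPC1 and leaves from there, and NCEH1 hydrolyses cholesterol esters. Oxysterols acting on the liver X receptors (LXR) raise Abca1, Abcg5 and Abcg8, while SREBP-2, which is processed when membranes are short of cholesterol, raises the genes of cholesterol synthesis and, in the intestine, Npc1l1.

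Pcyt1a itself was lower in every knockout array, at a log2 intensity of 7.51 ± 0.16 (SD, n = 5) against 9.22 ± 0.20 (SD, n = 5) in control (limma adjusted p = 6.51e-05). Median intensity per array lay between 45.8 and 48.1. Markers of enterocytes were among the brightest transcripts, and the dimmest of the 11 measured ones was at the 96.5th percentile of mean log2 intensity. On a list of 6 measured genes of the distal small intestine, such as the ileal bile acid binding protein Fabp6, the mean deviation of log2 intensity from each gene's overall mean was -1.33 in knockout 1, between 0.76 and 1.39 in knockouts 2 to 5 and between -0.91 and -0.09 in controls. Knockout 1 therefore stood apart from its group on this list, and calls that change without it are given both ways. It was not the only such array: on the Paneth cell list control 5 was at -2.155 and the other controls between 0.01 and 0.92.

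None of the 7 measured genes passed the test between groups. The test was limma on log2 intensity with Benjamini-Hochberg adjustment over 22180 genes and a threshold of 0.05, at which 76 genes, or 0.343%, were called, so a count of 0 in 7 does not set these genes apart. At an unadjusted p under 0.05, 1 of the 7 was lower and 0 were higher, against 6.25% and 5.82% of all genes (12.1% in either direction). Differences (knockout minus control on the log2 scale) were below 0 in 3 of the 7 (50.1% of all genes) and above 0 in 4, with a median of 0.03, beside -3.53e-04 over all genes. The gene that stood lower was Nceh1, the ester hydrolase. For the other 6, differences lay between -0.16 and 0.18 with adjusted p of 0.725 to 0.979, and their 95% intervals reached from -0.48 to 0.57, which is 0.716-fold to 1.48-fold of control. Those bounds are the outermost limits over the 6 genes, and the interval of each gene was narrower, such as -0.11 to 0.32 for Npc2 and -0.45 to 0.50 for Npc1. The smallest change detectable with 5 arrays a group was not tested.

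**Figure D1:**
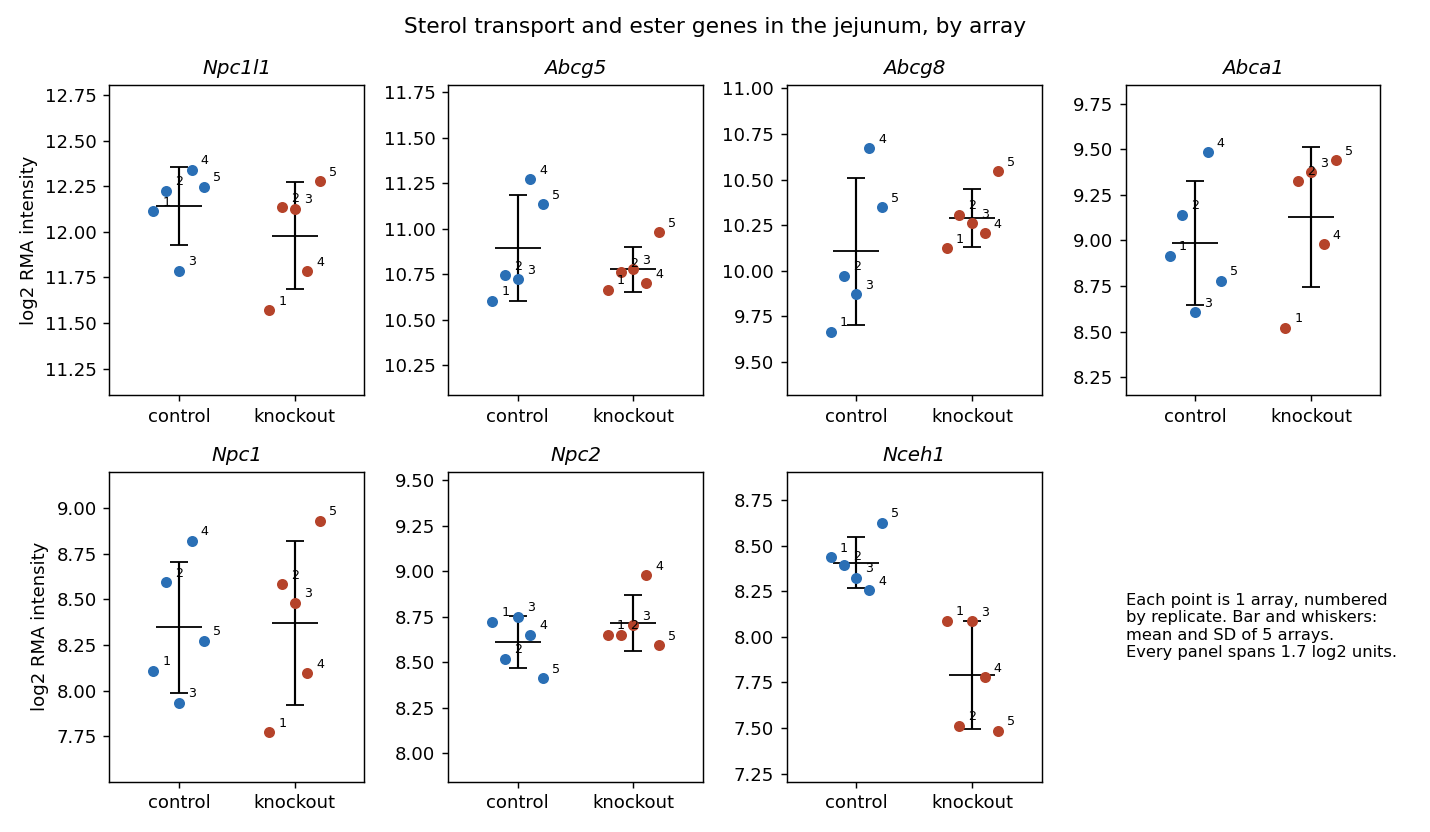
Log2 RMA intensity (vertical axis) of the 7 measured genes in 5 control (blue) and 5 knockout (red) arrays, numbered by replicate, with mean and SD as bar and whiskers; every panel spans the same height. The groups are apart in Nceh1, where knockouts lie between 7.48 and 8.09 and controls between 8.25 and 8.63, and overlap in the other 6 panels.

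Npc1l1, the uptake transporter, was bright, with a mean log2 intensity above 99.4% of genes. Its log2 intensity in knockouts 1 to 5 was 11.57, 12.14, 12.13, 11.78 and 12.28, and in controls 1 to 5 it was 12.11, 12.23, 11.79, 12.34 and 12.25. The groups overlapped: knockouts 1 and 4 lay under every control, while knockout 5 lay above all but control 4. The difference was -0.16 (SE 0.15, adjusted p = 0.725). Without knockout 1 it was -0.06. With the mean of the distal list as a covariate, it was -0.43 (adjusted p = 0.568).

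Abcg5 and Abcg8 encode the partner subunits of the sterol exporter and are read in opposite directions from neighbouring starts. RefSeq records 2 starts of Abcg8, of which the nearer is 110 bases from that of Abcg5 and the other lies 6819 bases away from the nearer one. The stretch between the Abcg5 start and the nearer Abcg8 start, shown because the transcripts moved together from array to array, reads as follows on the strand of Abcg8 (GRCm38.p6, chr17:84683012-84683120, plus strand), with capitals for AGATAA or its complement, the letters GATA factors bind.
Abcg5 to Abcg8: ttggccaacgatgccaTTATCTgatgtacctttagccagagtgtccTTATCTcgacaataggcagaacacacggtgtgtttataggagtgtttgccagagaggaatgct
The letters AGATAA occur in 11.2% of 32851 RefSeq promoter windows searched on both strands, and here they occur 2 times. Windows ran from 250 bases before to 50 after a start. A match is a description of the letters and not a binding site. Gata4, a GATA factor of the proximal and middle small intestine, had a difference of -0.16 (SE 0.10, adjusted p = 0.574), and 0.02 with the distal list as a covariate.

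Abcg5 had log2 intensities of 10.66, 10.76, 10.78, 10.70 and 10.98 in knockouts 1 to 5 and of 10.60, 10.74, 10.72, 11.27 and 11.13 in controls 1 to 5. Abcg8 had 10.12, 10.31, 10.26, 10.21 and 10.55 in knockouts and 9.66, 9.97, 9.87, 10.67 and 10.35 in controls. In both genes control 4 was the highest array and control 1 the lowest, so all knockouts lay within the range of the controls. The SD was 0.12 in knockouts and 0.29 in controls for Abcg5, and 0.16 and 0.40 for Abcg8. Control 4 also had the highest mean deviation on the list of 8 smooth muscle markers, 1.10 against -0.39 to 0.17 in the other 9 arrays, and its part in these values was not tested. Differences between groups were -0.12 (SE 0.13, adjusted p = 0.786) for Abcg5 and 0.18 (SE 0.17, adjusted p = 0.733) for Abcg8. Without knockout 1 they were -0.09 and 0.22. Without control 4 the difference was -0.02 for Abcg5 and 0.33 for Abcg8, and neither passed (limma adjusted p = 0.968 and 0.428).

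The difference between these partners within an array did separate the groups. Log2 intensity of Abcg5 minus that of Abcg8 was 0.54, 0.45, 0.52, 0.49 and 0.44 in knockouts 1 to 5 and 0.94, 0.77, 0.85, 0.60 and 0.79 in controls 1 to 5. Every knockout lay below every control, so Abcg8 stood higher relative to Abcg5 in knockout, by 0.30 on the log2 scale (SE 0.06). Since each probe set has its own response, only the change in this quantity can be read, not its size. This quantity was picked out after all 21 pairs of the 7 genes had been compared in this way. A two-sided exact permutation test gave p = 0.00794, the lowest value possible with 252 assignments of the arrays. After Benjamini-Hochberg over the 21 pairs this p was 0.0833 and did not pass. A pair at the lowest possible p can pass only when more pairs are low than were here, so the adjusted value cannot decide. Only 1 other pair separated the groups, Nceh1 against Npc2 (permutation p = 0.00794, 0.0833 adjusted). Separation was not counted over pairs of all genes, so how unusual it is for a pair cannot be said. With any single array left out, the Abcg5 minus Abcg8 difference ran from -0.35 to -0.26, and with the distal list as a covariate it was -0.25.

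Abca1, the basolateral exporter and an LXR target, spread widely within both groups. Log2 intensity of Abca1 was 8.52, 9.33, 9.37, 8.98 and 9.44 in knockouts 1 to 5 and 8.91, 9.14, 8.60, 9.48 and 8.78 in controls 1 to 5. The lowest of all 10 arrays was knockout 1 and the highest control 4. The difference was 0.14 (SE 0.20, adjusted p = 0.834). It was 0.30 without knockout 1 and turned to -0.26 with the distal list as a covariate, and neither value passed (limma adjusted p = 0.499 and 0.833).

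Of the lysosomal partners, Npc1, the membrane protein, was at 7.77, 8.58, 8.48, 8.09 and 8.93 in knockouts 1 to 5 and at 8.11, 8.59, 7.93, 8.82 and 8.27 in controls 1 to 5 on the log2 scale. Again knockout 1 was the lowest array, and the highest was knockout 5. The difference was 0.03 (SE 0.22, adjusted p = 0.979). Its sign depended on the arrays: it was 0.18 without knockout 1, -0.11 without knockout 5 and -0.41 with the distal list as a covariate. A dimmer probe set of Npc1 differed by 0.05 (SE 0.14).

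Npc2, the soluble partner that binds cholesterol in the lysosome lumen, had a narrow range in both groups. It was at 8.65, 8.65, 8.70, 8.98 and 8.59 in knockouts 1 to 5 and at 8.72, 8.52, 8.75, 8.65 and 8.41 in controls 1 to 5. Knockout 4 lay above all other arrays, and control 5 below them. The difference was 0.10 (SE 0.10, adjusted p = 0.745). Without knockout 4 it was 0.04, and without knockout 1 it was 0.12.

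Nceh1 encodes a membrane-bound hydrolase that frees cholesterol from its esters. The 120 bases before its RefSeq start (GRCm38.p6, chr3:27182884-27183003, plus strand) are shown because this was the gene whose groups were apart, and capitals mark CCAAT on the other strand and the E-box CACGTG.
Nceh1: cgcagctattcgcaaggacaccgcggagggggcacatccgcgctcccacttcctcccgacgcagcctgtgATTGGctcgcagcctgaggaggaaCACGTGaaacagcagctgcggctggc
RefSeq windows were found for 7 of the 9 genes, 8 windows in all. Those of Abcg5 and the nearer Abcg8 start overlap by 209 bases and share a CCAAT, so they are not independent. CCAAT occurs in 37.4% of all windows and in 6 of these 8, and the E-box in 7.15% of all windows and in 2 of the 8, those of Nceh1 and Abca1. The nuclear receptor half-site AGGTCA, in 16.3% of all windows, was in that of Npc1l1 and in 0 of the other 7, which says only that these letters are not there.

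Log2 intensity of Nceh1 was 8.09, 7.51, 8.09, 7.78 and 7.48 in knockouts 1 to 5 and 8.44, 8.39, 8.32, 8.25 and 8.63 in controls 1 to 5. All 5 knockouts lay below all 5 controls. Over all genes such separation was seen in 2.77%. The difference was -0.62 (SE 0.13, 95% interval -0.91 to -0.32), which puts knockout at 65.2% of control (53.2% to 79.9%). It missed the threshold in limma over all genes (adjusted p = 0.0827), where 158 genes had a smaller p, and passed only without knockout 1 among the 10 omissions of a single array (-0.69, adjusted p = 0.0341). Without knockout 1 and control 5 together the difference was -0.64 and did not pass (limma adjusted p = 0.0623). The two-sided exact permutation p for Nceh1 alone was 0.00794, the smallest possible, and it is 1 of 7 such tests.

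Several measures were read beside Nceh1. With the distal list as a covariate its difference was -0.38 (SE 0.14, adjusted p = 0.595). On the list of 8 proximal genes the knockouts other than knockout 1 lay between -0.66 and -0.33, knockout 1 at 0.32 and controls between 0.04 and 0.71. Macrophages also express Nceh1. Of their 12 markers 7 were lower and 0 passed, with list means of -0.38 to 0.23 in knockout and -0.77 to 0.34 in control. The lowest macrophage value was in control 5, the array in which Nceh1 was highest. Control 5 was also the lowest array on the lists of smooth muscle, B and plasma cells, Paneth cells and goblet cells. With group means subtracted, Nceh1 had a Pearson r of -0.16 with the macrophage list mean over the 10 arrays. With the distal list r was -0.69, and with the proximal list it was 0.62. The part of these lists in the Nceh1 difference was not tested. A second, dim probe set of Nceh1, at 4.56 to 4.91 in knockout and 4.78 to 5.30 in control, differed by -0.19 (SE 0.11), and its groups overlapped.

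**Figure D2:**
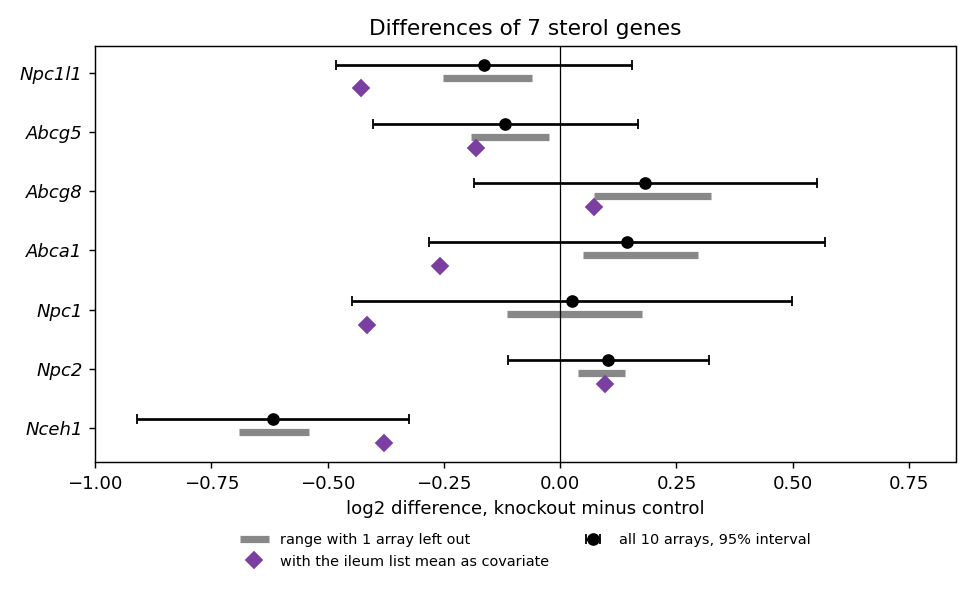
Log2 difference, knockout minus control (horizontal axis), of the 7 measured genes: black points with the 95% interval from all 10 arrays, grey bars for the range with 1 array left out, and violet diamonds with the mean of the distal (ileum) list as a covariate. The interval of Nceh1, from -0.91 to -0.32, is the only one that does not reach 0, and the diamonds of Abca1 and Npc1 lie on the other side of 0 from their points.

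Although the groups differed little, some of these genes varied together from array to array. After the mean of each group was subtracted, 21 pairs were compared over the 10 arrays with exact permutation within groups (14400 arrangements, two-sided), and 4 pairs passed Benjamini-Hochberg over the pairs by Pearson's r and 6 by Spearman's rho. Abcg5 and Abcg8 had a Pearson r of 0.99 (exact permutation p = 1.39e-04, adjusted 0.00219) and a Spearman rho of 0.96 (exact permutation p = 2.78e-04, adjusted 0.00292). Without the 2 arrays farthest from the median of Abcg5, controls 4 and 5, r was 0.98. Among all other 22179 genes, Abcg8 was the one most like Abcg5.

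Npc1l1, Npc1 and Abca1 formed the other 3 of the 4 pairs that passed by r. The 2 pairs that passed by rho alone joined Npc1l1 to the exporter subunits. For Npc1l1 and Abcg5, rho was 0.73 (exact permutation p = 8.33e-04, adjusted 0.00438) and r 0.61 (exact permutation p = 0.0326, adjusted 0.0992), with r = 0.61 without knockout 1 and control 3. For Npc1l1 and Abcg8, rho was 0.84 (exact permutation p = 2.78e-04, adjusted 0.00292) and r 0.61 (exact permutation p = 0.0331, adjusted 0.0992), with r = 0.60 without the same arrays. For Npc1l1 and Npc1, r was 0.93 (exact permutation p = 2.08e-04, adjusted 0.00219) and rho 0.93 (exact permutation p = 6.25e-04, adjusted 0.00438), with r = 0.88 without knockout 1 and control 3. For Abca1 and Npc1, r was 0.94 (exact permutation p = 3.47e-04, adjusted 0.00243) and rho 0.90 (exact permutation p = 0.00153, adjusted 0.00642), with r = 0.90 without knockout 1 and control 4. For Npc1l1 and Abca1, r was 0.89 (exact permutation p = 0.00111, adjusted 0.00583) and rho 0.90 (exact permutation p = 0.00215, adjusted 0.00754), with r = 0.73 without knockout 1 and control 3. Such values were not confined to these genes, since 20 of the 22179 other genes were more like Npc1l1 than Npc1 was. With Npc1 included, 0.0947% of the other genes were at least as like, and 46 genes had an r above 0.9 with Npc1l1. Npc1l1, Npc1 and Abca1 had r of 0.70, 0.73 and 0.75 with the distal list mean over the same arrays. With the enterocyte list mean, r was 0.73, 0.65 and 0.50. The part of these lists in the pairs was not tested.

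The genes most like each member over the same 10 arrays, by this r and given as a description, were Dock3 for Npc1l1 (r = 0.97), Abcg8 for Abcg5 (r = 0.99), Zbtb7a for Abcg8 (r = 0.99) and Nek6 for Abca1 (r = 0.99). For the others they were Ralgps2 for Npc1 (r = 0.97), Gtf2i for Npc2 (r = 0.95) and Cyp2d34 for Nceh1 (r = 0.96). Each is the highest value over all named genes, and none of these genes passed the test between groups.

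**Figure D3:**
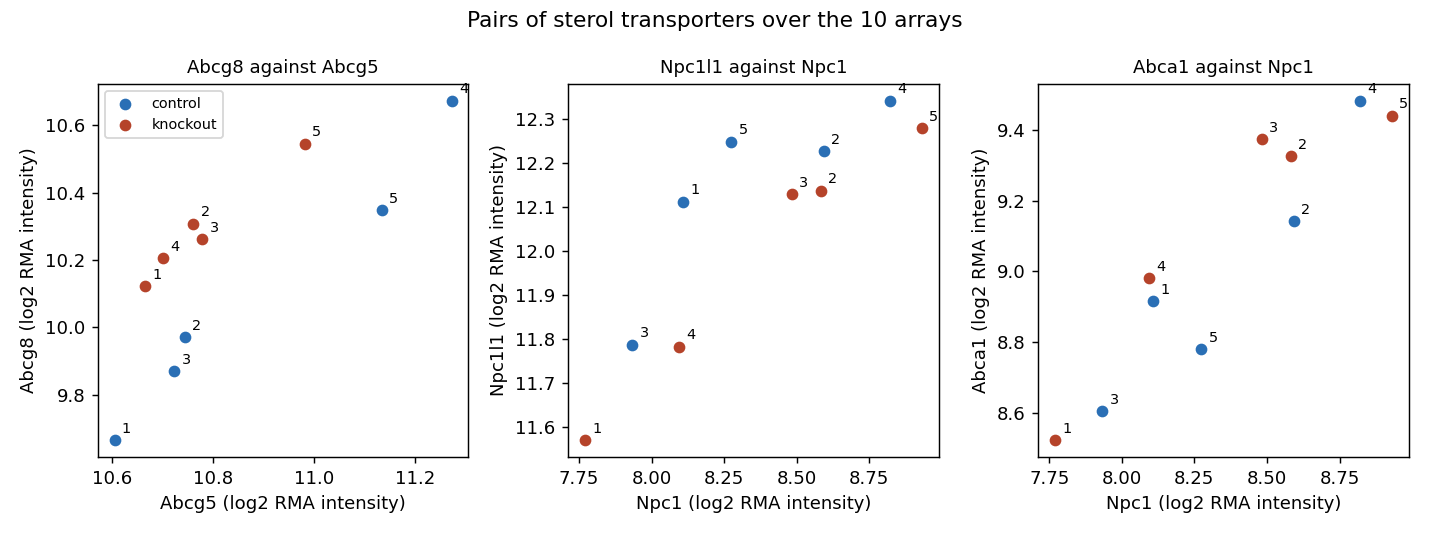
Log2 RMA intensity of Abcg8 against Abcg5, Npc1l1 against Npc1 and Abca1 against Npc1 (both axes in log2 units), with 1 point for each of 5 control (blue) and 5 knockout (red) arrays, numbered by replicate. In the first panel every knockout has a smaller value of Abcg5 minus Abcg8 than every control, with group means 0.30 apart. In the other panels knockout 1 is at the lower left.

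The rest of the pathway was read from lists of its other genes. Around the cell surface, 0 of 12 measured genes passed and 8 were lower (median -0.08). They were led by the values for Cd36, a scavenger receptor for fatty acids and lipoproteins (-1.85, SE 0.39, adjusted p = 0.0709), Flot1, a flotillin of membrane rafts (0.31, SE 0.08), and Numb, an endocytic adaptor (-0.29, SE 0.12). Within the cell, 0 of 15 genes of lysosomal release and transfer passed and 10 were lower (median -0.12). Lipa, the acid lipase that frees cholesterol from lipoprotein esters ahead of NPC2 and NPC1, stood at -0.84 (SE 0.20, adjusted p = 0.0989), Osbpl1a at -0.41 (SE 0.13) and Gramd1a, a carrier from the plasma membrane to the endoplasmic reticulum, at -0.29 (SE 0.09).

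Among genes of lipoprotein assembly and export, 10 of 11 were lower and 0 passed (median -0.08), with Apoc3 at -0.70 (SE 0.19), Apoa4 at -0.16 (SE 0.08) and Apob, the scaffold of the chylomicron, at -0.16 (SE 0.09). In the list of ester hydrolysis, to which NCEH1 belongs by function, 1 of 7 other genes fell and 6 were lower (median -0.26). The gene that fell was Ces1d, a carboxylesterase (-1.21, SE 0.17, adjusted p = 0.0185), and Ces1g was at -0.83 (SE 0.33) and Abhd5, the co-activator of adipose triglyceride lipase, at -0.47 (SE 0.17). The call of Ces1d was lost without knockout 2, knockout 4 or control 4 (adjusted p of 0.0557 to 0.0606) and with the distal list as a covariate (-0.97, adjusted p = 0.250), and carboxylesterases have close relatives that probes may not tell apart. The probe set of Ces1d was dim, with a mean log2 intensity of 4.492 in knockout and 5.705 in control. With 16 added before log2 the difference of Ces1d shrank to -0.83, which still passed (limma adjusted p = 0.0246). Lipe, the hormone-sensitive lipase, was at -0.19 (SE 0.11).

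The regulators' targets differed in how they stood. Of 11 measured LXR targets outside the 9 genes, 0 passed, with 5 higher and 6 lower (median -0.04). Srebf1, the lipogenic factor, was at -0.93 (SE 0.23, adjusted p = 0.116), Smpdl3a at -0.53 (SE 0.14) and Abca7 at 0.27 (SE 0.13). Beside these, the LXR targets Abca1, Abcg5 and Abcg8 had differences of 0.14, -0.12 and 0.18. Of 15 measured SREBP-2 targets, 2 rose, 14 were higher and 10 had an unadjusted p under 0.05 (median 0.55). They were Fdps, of the mevalonate pathway (1.05, SE 0.16, adjusted p = 0.0242), and Nsdhl, of the last steps of cholesterol synthesis (0.67, SE 0.12, adjusted p = 0.0469), with Mvk at 0.64 (SE 0.13, adjusted p = 0.0566). Both calls were lost with the distal list as a covariate (adjusted p = 0.305 for Fdps and 0.428 for Nsdhl), where only 4 of all genes passed. That of Nsdhl was also lost with every array scaled to a shared median (0.0516). That of Fdps also ended without knockouts 2, 3 or 4 or controls 2, 4 or 5 (adjusted p of 0.0519 to 0.0738), and that of Nsdhl without any 1 array other than knockout 1 (0.0632 to 0.151). Npc1l1, which SREBP-2 also raises, stood at -0.16, and no test of its difference from that list was made.

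Among the regulators themselves, 0 of 14 passed, with 8 higher (median 0.11). Srebf2, which encodes SREBP-2, was at 0.44 (SE 0.13), Insig2, which retains it in the endoplasmic reticulum, at 0.46 (SE 0.15), and Nr1h3, which encodes LXR alpha, at 0.07 (SE 0.09).

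Leaving out knockout 1, the array with the lowest distal list mean, raised the number of calls over all genes to 268 (1.21%), and several genes of the pathway passed. Nceh1 was joined by Lipa (-1.02, adjusted p = 0.0103) and Ces1d among genes that free cholesterol from esters, and by Cd36 (-2.26, adjusted p = 0.00217). Of the SREBP-2 targets 7 of 15 then rose and 0 fell, among them Fdps, Nsdhl, Mvk (0.74, adjusted p = 0.0114), Sqle and Cyp51. Srebf2 rose too (0.54, adjusted p = 0.0359), and the LXR targets Srebf1 (-1.07, adjusted p = 0.0418) and Smpdl3a (-0.63, adjusted p = 0.0359) fell. The other 6 sterol genes did not pass there either. In the same fit 4 of 6 distal genes rose, 3 of 8 proximal genes fell and 1 of 11 enterocyte markers, Lct, fell (-0.78, adjusted p = 0.0343), and their part in these calls was not tested.

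**Figure D4:**
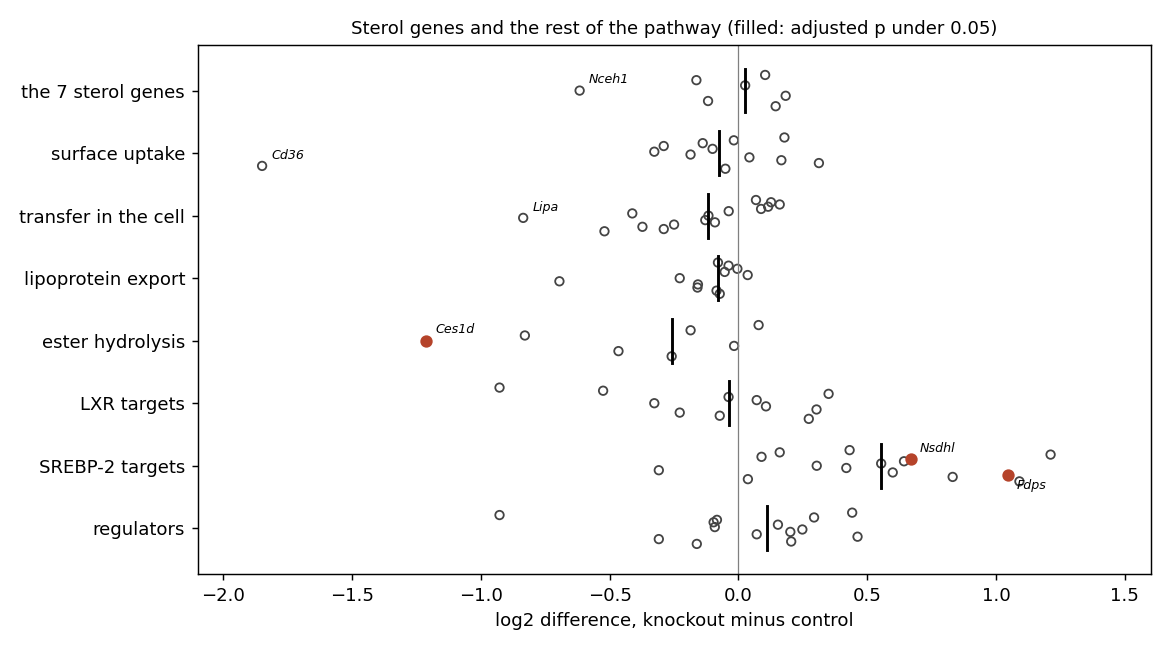
Log2 difference, knockout minus control (horizontal axis), of each measured gene in 8 lists (rows), with the list median as a black bar and genes past an adjusted p of 0.05 filled red; names are given for those and for Nceh1, Cd36 and Lipa. The 7 sterol genes centre near 0 (median 0.03) while SREBP-2 targets centre at 0.55, and some genes stand in more than 1 list.

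Other cell types were read from lists of marker genes. Enterocyte markers had 8 of 11 genes lower and 0 past the test, led by lactase, Lct (-0.72, SE 0.15, adjusted p = 0.0640; 0.0343 without knockout 1), then Treh (-0.30, SE 0.20) and Krt20 (-0.13, SE 0.09). Of 6 distal genes 5 were higher and 0 passed, with Fabp6 at 3.89 (SE 0.97), Fgf15 at 1.17 (SE 0.26) and Cubn at -0.84 (SE 0.19). Of 8 proximal genes 6 were lower and S100g fell (-1.79, SE 0.33, adjusted p = 0.0469; 0.0520 to 0.151 without any 1 array other than knockout 1), with Cyp3a11 at -1.85 (SE 0.39) and Adh1 at -0.77 (SE 0.26). The call of S100g was also lost with the distal list as a covariate (-1.30, adjusted p = 0.441), with trend and robust eBayes (0.0606) and with 16 added before log2 (0.0680). All 9 T cell genes were lower and 0 passed, with list means of -1.08 to 0.40 in knockout and -0.15 to 1.08 in control. Of the 9, 6 were lower at an unadjusted p under 0.05 (6.25% of all genes) and 0 were higher, and the list median was -0.74. In the lists of smooth muscle, B and plasma cells, endothelium, Paneth cells, goblet cells and tissue beside the gut, 0 genes passed. Of the 8 goblet genes, 6 were lower and 2 higher. At an unadjusted p under 0.05, 4 were lower (6.25% of all genes) and 0 higher. In 2 of the 8 the groups did not overlap (2.77% of all genes). The part of cell makeup or of position along the gut in the differences above was not tested beyond the covariate values given.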

How the data were processed

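From 10 jejunum samples, 400 ng RNA each was labelled for Affymetrix arrays with the WT Plus kit, per the labels' protocols. The authors used RMA in Affymetrix Expression Console 1.4.1.46, per the submitters' processing notes. Further settings: not given in the sources used here. Each deposited value is a linear intensity (1.8 to 15278.7), and log2 was taken of it. RMA makes arrays alike in distribution, so a shift shared by most transcripts cannot be seen. Precision is limited by the number of arrays.

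Of 41345 probe sets, 23521 carried 1 symbol in GEO's platform annotation, 1814 several and 16010 none. The brightest probe set by mean over the 10 arrays stood for each gene, which gave 22180 genes. Groups came from the sample titles. Limma 3.58.1 in R 4.3.3 (lmFit, eBayes, group as the only term) was used, checked on simulated data. Single genes also had a two-sided exact permutation test over 252 assignments. Promoter sequences are from RefSeq (GRCm38.p6); 7 of 9 members matched.

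The 9 members, the lists and the tests were chosen with earlier results of these data known. Named were the members, Pcyt1a, the 3 genes with the smallest p in each list (of the marker lists, only those read beside the members) and the gene most like each member; Gata4, Lipe and Nr1h3 were added for their function. Alternatives were other scalings, filters, probe set summaries, variance models, a pseudocount, the replicate number as a block, array weights, the distal list as a covariate, and omission of arrays. Those for the Abcg5 and Abcg8 pair were chosen after seeing the data.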

Additional observations from a re-analysis of the deposited data

Results flagged for a closer look

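Of 16 groups of 5 arrays looked at (7 sterol genes and Pcyt1a, in knockout and control), 1 held an array far from the others. In Npc2, knockout 4 was at a log2 intensity of 8.98 and the next knockout at 8.70, a gap of 71.3% of the group's range. Chance flags about 1 in 20 such groups. Knockout 4 also had the highest Paneth list mean of the knockouts, 0.85 against -0.70 to 0.48. It was extreme on other lists too, such as the lowest of all arrays on enterocyte (-0.21) and T cell markers (-1.08). The part of these lists in the Npc2 value was not tested.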

How the results depend on the processing

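Of the 7 genes, 0 passed in 20 of 22 alternatives; 1, Nceh1, passed at an adjusted p under 0.1 and without knockout 1, so with 1 array left out the count ran from 0 to 1. Nceh1 stayed below 0 in 21 of 21 fits (-0.69 to -0.38), and its adjusted p ran from 0.0341 to 0.595. Npc1l1, Abcg5, Abcg8 and Npc2 kept their direction in the same 21. Directions that turned were those of Abca1 (-0.26), Npc1 (-0.41) and Gata4 (0.0208) with the distal list as a covariate, and of Npc1 with 1 array left out (-0.11 to 0.18); the cause was not tested. Beyond fits without knockout 1, Mvk passed without the dimmest 30% of genes (adjusted p = 0.0450), and Mvk, Cd36, Fgf15 and Cyp3a11 with array weights (0.0341 to 0.0462). Counts over all genes, 76 as reported, were 142 with array weights, 4 with the distal covariate, 186 without knockout 1 and control 5, and 261 at 0.1. Leaving out knockouts 1 to 4 gave 268, 11, 29 and 12, and leaving out controls 1 to 5 gave 18, 16, 50, 15 and 36, so the range was 11 to 268. The replicate number as a block gave 27, left Nceh1 at an adjusted p of 0.135, and ended the calls of Ces1d (0.0521), Fdps (0.0830), Nsdhl (0.115) and S100g (0.0773). Deviations of same-numbered arrays correlated between -0.135 and 0.125 over all genes, which does not settle whether the numbers pair the arrays.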
